A study of Mus musculus with 7 samples.

Results

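The mucin O-glycosylation enzymes described here are 10 genes that begin, branch or lengthen the sugar chains of mucins. They were found as the gene probes (those not marked as array controls) whose gene name is Galnt3, Galnt4, Galnt7, Galnt12, C1galt1, C1galt1c1, Gcnt1, Gcnt3, B3gnt3 or B3gnt7. All 10 were on the array, with 19 of its 41174 gene probes, and 16 of those probes passed the filter on dim probes (2 or more of the 7 arrays had sample signal well above background). Through its brightest such probe each enzyme stood among the 17498 genes kept, although Gcnt1 passed with the minimum of 2 arrays.

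Mucin-type O-glycosylation starts in the Golgi, where a GalNAc transferase of the Galnt family places N-acetylgalactosamine on a serine or threonine. Core enzymes then add galactose or N-acetylglucosamine, which sets the branching, and extending enzymes lengthen the branches before sialic acid, fucose or sulfate closes them. In the small intestine, goblet cells carry the heaviest load of this work because the gel mucin Muc2 is densely covered with such chains.

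Expression was measured on 7 dual-colour arrays of RNA from sorted mouse intestinal cells. The 6 Dll1 samples were GFP-high cells of Dll1-EGFP-ires-CreERT2 mice, in which the promoter of Dll1, a Notch ligand of secretory precursors, drives green fluorescent protein (GFP). Gates on the surface protein CD24 divided them into 3 groups, called CD24 low, medium and high, with 2 arrays each. The Lgr5 sample, 1 array, held GFP-high cells of Lgr5-EGFP-ires-CreERT2 mice, in which the promoter of the crypt stem cell receptor Lgr5 drives GFP, and every Dll1 group is compared with this same array. Groups are thus gates on a reporter and a surface protein and may hold several cell types. The labels used here give neither age nor strain, and do not tie the replicates to animals. Each sample carried Cy3 and was hybridised with Cy5-labelled RNA of whole small intestine. A level below is log2 of sample over whole intestine, and 0 is the level in whole intestine. The dyes were never exchanged, so a dye effect enters each level but cancels between groups. Levels of different genes come from different probes and are not compared with each other. Since each sample is bulk RNA, fewer cells of a type and less RNA per cell cannot be told apart. Single arrays are named by CD24 level and replicate number, such as low 1.

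The deposited probe sequences of 4 enzymes are shown because the largest difference from the Lgr5 sample, and the check of 2 further results with another probe, were read from them. The probes are 60 bases long and are written 5′ to 3′. In the first 3, capitals mark a reading frame that runs through the probe without a stop codon, 19 codons for Gcnt3 and C1galt1 and 20 for Galnt7. The C1galt1c1 probe is in lower case throughout, and no frame is marked in it.
Gcnt3: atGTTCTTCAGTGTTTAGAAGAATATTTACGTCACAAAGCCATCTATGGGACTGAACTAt
C1galt1: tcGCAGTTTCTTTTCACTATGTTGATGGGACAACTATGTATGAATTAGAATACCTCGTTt
Galnt7: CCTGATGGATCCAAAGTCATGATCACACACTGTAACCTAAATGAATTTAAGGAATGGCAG
C1galt1c1: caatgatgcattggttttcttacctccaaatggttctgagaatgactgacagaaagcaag
On mouse build mm9, as given in the array files, they lie at chr9:69881780-69881839 on the minus strand (Gcnt3), chr6:7821076-7821135 on the plus strand (C1galt1), chr8:60010408-60010467 on the minus strand (Galnt7) and chrX:35984333-35984392 on the minus strand (C1galt1c1). An annotation of mm9 was not used here, so the exon or untranslated region that a probe lies in is not given.

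All 10 enzymes had their lowest group level in Lgr5 cells, and each lay above the Lgr5 array on every Dll1 array with a value, 6 arrays for 9 enzymes and 5 for B3gnt3. Of all 17453 genes with an Lgr5 value, 34.3% had every measured Dll1 array above Lgr5. By limma's test with adjustment over all genes and a threshold of 0.05, 9 of the 10 enzymes were higher in CD24 low than in Lgr5 (12.0% of all genes were higher), 7 were higher in CD24 medium (10.3%) and 9 in CD24 high (21.3%). Gcnt1 is among the 9 of CD24 high without a measurable fold, since its signal was not well above background on the CD24 high and Lgr5 arrays. The median difference of the 10 enzymes from Lgr5 was 2.18 in CD24 low, 2.01 in CD24 medium and 1.96 in CD24 high on the log2 scale, beside 0.11, 0.09 and 0.10 for all genes. The 7 enzymes that were higher in all 3 Dll1 groups were Galnt3, Galnt7, Galnt12, C1galt1, C1galt1c1, Gcnt3 and B3gnt7.

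**Figure D1:**
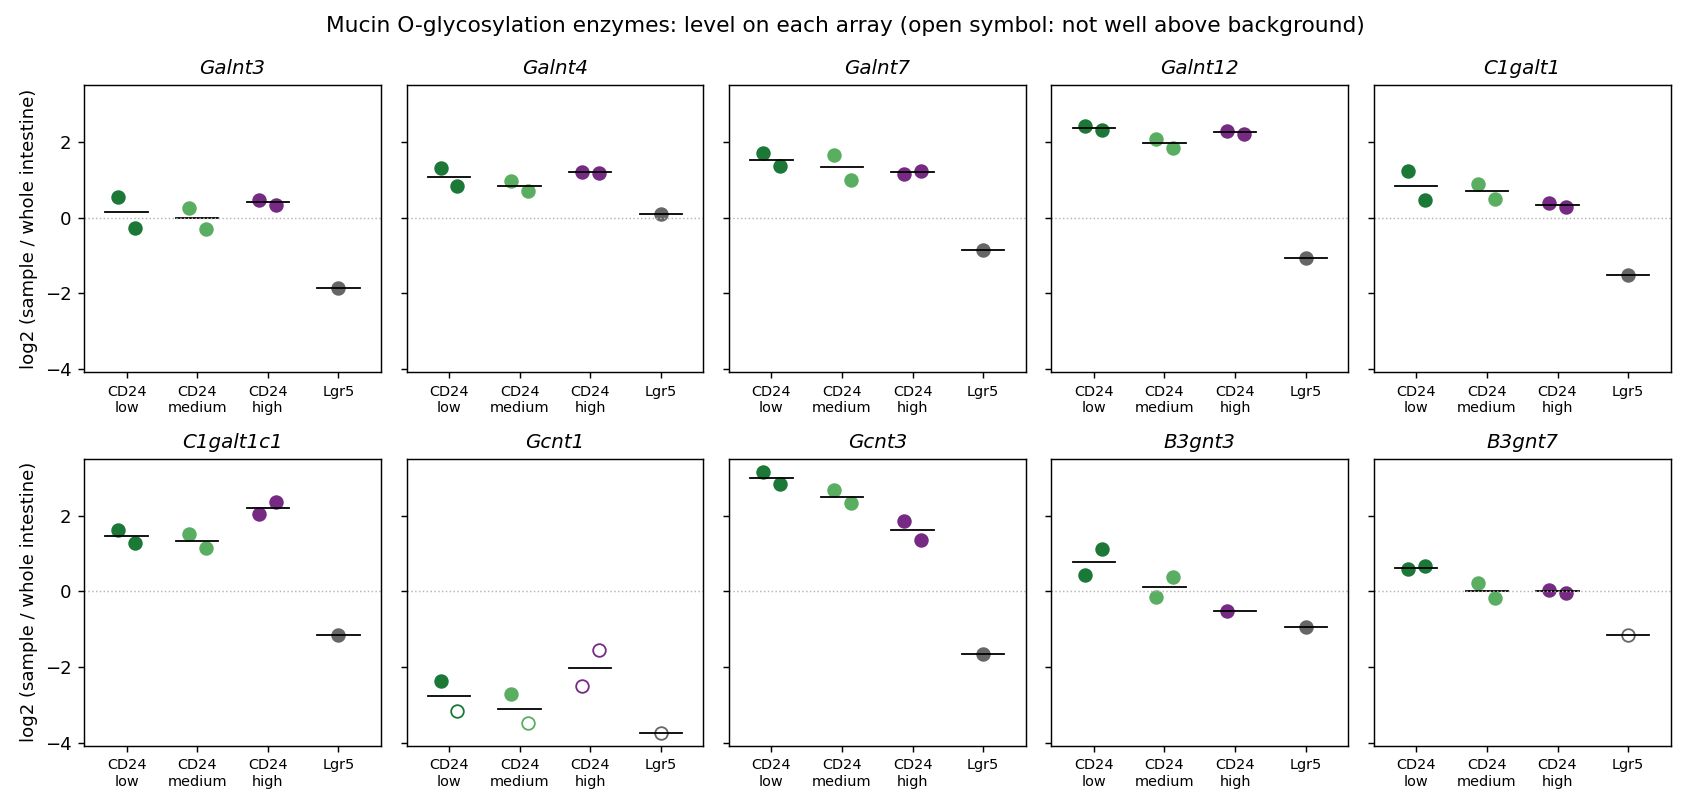
Level of each of the 10 enzymes on each array, as log2 of sample over whole intestine (y axis), by sorted group (x axis); points are arrays, black lines group means, and open points spots not well above background. In every panel the single Lgr5 point lies below all Dll1 points, and Gcnt3 runs down from CD24 low to CD24 high.

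Among the initiating enzymes, Galnt12 had the largest differences from Lgr5. Galnt12 (probe at chr4:47135515-47135574, plus strand) had levels of 2.41 and 2.32 in CD24 low, 2.08 and 1.84 in CD24 medium, 2.29 and 2.21 in CD24 high and −1.08 in Lgr5. The 6 Dll1 values fell within a narrow band, and Lgr5 lay far below it. Its signal was 10.9-fold higher in CD24 low than in Lgr5 (log2 difference 3.44, SE 0.20, adjusted p = 0.000509), 8.22-fold higher in CD24 medium (adjusted p = 0.000763) and 10.1-fold higher in CD24 high (adjusted p = 0.000161).

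Galnt7, which is known to act best on peptides that already carry a sugar, had levels of 1.70 and 1.36 in CD24 low, 1.66 and 0.99 in CD24 medium, 1.16 and 1.24 in CD24 high and −0.85 in Lgr5 (probe at chr8:60003530-60003589, minus strand). The Dll1 groups overlapped or nearly met, and all were above Lgr5. It was 5.22-fold higher in CD24 low (SE of the log2 difference 0.31, adjusted p = 0.00499), 4.54-fold higher in CD24 medium (adjusted p = 0.00675) and 4.16-fold higher in CD24 high (adjusted p = 0.00359) than in Lgr5. The Galnt7 probe printed above, 6878 bases away, gave differences of 2.40, 2.09 and 2.09 on the log2 scale for CD24 low, medium and high, all past the threshold as well.

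Galnt3, an initiating enzyme with broad use of mucin and other substrates, lay near the whole-intestine level in Dll1 cells. Its levels were 0.55 and −0.27 in CD24 low, 0.26 and −0.29 in CD24 medium, 0.45 and 0.35 in CD24 high and −1.86 in Lgr5 (probe at chr2:65921662-65921721, minus strand). The replicates of CD24 low spread more widely than the means of the 3 Dll1 groups, and Lgr5 stood apart. Galnt3 was 3.99-fold higher in CD24 low (SE of the log2 difference 0.38, adjusted p = 0.0156), 3.59-fold higher in CD24 medium (adjusted p = 0.0206) and 4.78-fold higher in CD24 high (adjusted p = 0.00537) than in Lgr5. The CD24 medium call was lost in 4 alternative settings, with adjusted p of 0.0501 to 0.0688.

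Galnt4, which like Galnt7 takes glycosylated peptides as substrates, had the smallest differences from Lgr5 among the initiating enzymes. It had levels of 1.31 and 0.84 in CD24 low, 0.96 and 0.71 in CD24 medium, 1.21 and 1.19 in CD24 high and 0.10 in Lgr5 (probe at chr10:98575514-98575573, plus strand). Every Dll1 array was above Lgr5, and CD24 low overlapped with both other CD24 levels. The difference was 1.97-fold for CD24 low (SE of the log2 difference 0.25, adjusted p = 0.0381) and 2.14-fold for CD24 high (adjusted p = 0.0166), whereas that of CD24 medium, 0.73 on the log2 scale, did not pass (adjusted p = 0.0921). The CD24 low call was lost in 8 alternative settings and the CD24 high call in 3, with the highest adjusted p at 0.106 and 0.0561.

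Of the core enzymes, Gcnt3, which makes the branched core 2 and core 4 structures of mucins, showed the largest difference from Lgr5 of all 10 enzymes. Gcnt3 had levels of 3.16 and 2.83 in CD24 low, 2.68 and 2.33 in CD24 medium, 1.87 and 1.37 in CD24 high and −1.65 in Lgr5. The 4 groups did not overlap and descended in that order. It was 25.0-fold higher in CD24 low (log2 difference 4.64, SE 0.29, adjusted p = 0.000598), 17.8-fold higher in CD24 medium (adjusted p = 0.000903) and 9.62-fold higher in CD24 high (adjusted p = 0.00059) than in Lgr5. The Lgr5 spot was marked well above background but was dim. Its intensity was 86.1, beside a median of 79.7 over the gene spots of that array. The size of these 3 folds therefore rests on 1 spot of low signal and is uncertain.

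C1galt1 adds galactose to make core 1, the base of most mucin chains, and C1galt1c1 (Cosmc) is the chaperone without which C1galt1 does not fold. C1galt1 had levels of 1.23 and 0.46 in CD24 low, 0.89 and 0.50 in CD24 medium, 0.40 and 0.29 in CD24 high and −1.52 in Lgr5 (probe at chr6:7825171-7825230, plus strand). CD24 low and medium overlapped, CD24 high lay just below both and Lgr5 lay lowest. C1galt1 was 5.17-fold higher in CD24 low (SE of the log2 difference 0.34, adjusted p = 0.00674), 4.65-fold higher in CD24 medium (adjusted p = 0.00869) and 3.65-fold higher in CD24 high (adjusted p = 0.00725) than in Lgr5. The C1galt1 probe printed above, 4095 bases away, also passed in all 3 comparisons. Its Lgr5 spot was not well above background, so its fold has only a bound, the mean log2 signal of the brighter group less the higher of the array's lowest signal well above background and the probe's own signal. By that probe C1galt1 was at least 3.91-fold higher in CD24 low, at least 2.73-fold higher in CD24 medium and at least 2.62-fold higher in CD24 high than in Lgr5 (adjusted p = 0.00188, 0.00392 and 0.00181).

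C1galt1c1 had levels of 1.62 and 1.29 in CD24 low, 1.51 and 1.14 in CD24 medium, 2.05 and 2.35 in CD24 high and −1.16 in Lgr5. CD24 high lay above the other groups without overlap, unlike C1galt1, whose lowest Dll1 values were in CD24 high. C1galt1c1 was 6.12-fold higher in CD24 low (SE of the log2 difference 0.26, adjusted p = 0.00233), 5.60-fold higher in CD24 medium (adjusted p = 0.00309) and 10.3-fold higher in CD24 high (adjusted p = 0.000374) than in Lgr5. These values rest on 1 of its probes, since the other was dim on all arrays and not well above background in CD24 high.

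Gcnt1, a core 2 branching enzyme that is not restricted to mucin-secreting tissues, was close to the detection limit. Its brightest kept probe (chr19:17400787-17400846, minus strand) was well above background on 1 CD24 low and 1 CD24 medium array, and on neither CD24 high array nor the Lgr5 array. Its levels were −2.38 and −3.16 in CD24 low, −2.72 and −3.47 in CD24 medium, −2.50 and −1.54 in CD24 high and −3.73 in Lgr5, all below the level of whole intestine. The difference of CD24 high from Lgr5 passed the threshold (adjusted p = 0.0429) with both groups below background, and no fold is given for it. The call was lost in 6 alternative settings.

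The extending enzymes were B3gnt7 and B3gnt3. B3gnt7 lengthens chains that end in galactose, and its levels were 0.58 and 0.67 in CD24 low, 0.21 and −0.17 in CD24 medium, 0.05 and −0.04 in CD24 high and −1.16 in Lgr5 (probe at chr1:88202952-88203011, plus strand). CD24 low lay above the other Dll1 groups, and these overlapped with each other. In Lgr5 its signal was not well above background, so its fold too has only a bound. B3gnt7 was at least 3.09-fold higher in CD24 low (adjusted p = 0.00428), at least 2.09-fold higher in CD24 medium (adjusted p = 0.0151) and at least 1.90-fold higher in CD24 high (adjusted p = 0.00825). The CD24 medium call was lost without CD24 medium replicate 1 (adjusted p = 0.0617), and that of CD24 high with the sample channel alone (adjusted p = 0.0621).

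B3gnt3, which extends core 1, had the smallest difference between a Dll1 group and Lgr5. It had levels of 0.44 and 1.11 in CD24 low, −0.16 and 0.39 in CD24 medium, −0.52 in CD24 high replicate 1 and −0.93 in Lgr5 (probe at chr8:74216353-74216412, minus strand). The spot of CD24 high replicate 2 was an outlier by the scanner's mark and was left out of the fit, so CD24 high has 1 value for this gene. B3gnt3 was 3.26-fold higher in CD24 low than in Lgr5 (log2 difference 1.70, SE 0.37, adjusted p = 0.0304). The difference was 1.04 for CD24 medium (adjusted p = 0.114) and 0.41 for CD24 high (adjusted p = 0.518), and neither passed. The CD24 low call was lost without CD24 low replicate 2 (adjusted p = 0.0676), with the sample channel alone (adjusted p = 0.0856) and with slide as a term (adjusted p = 0.248).

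**Figure D2:**
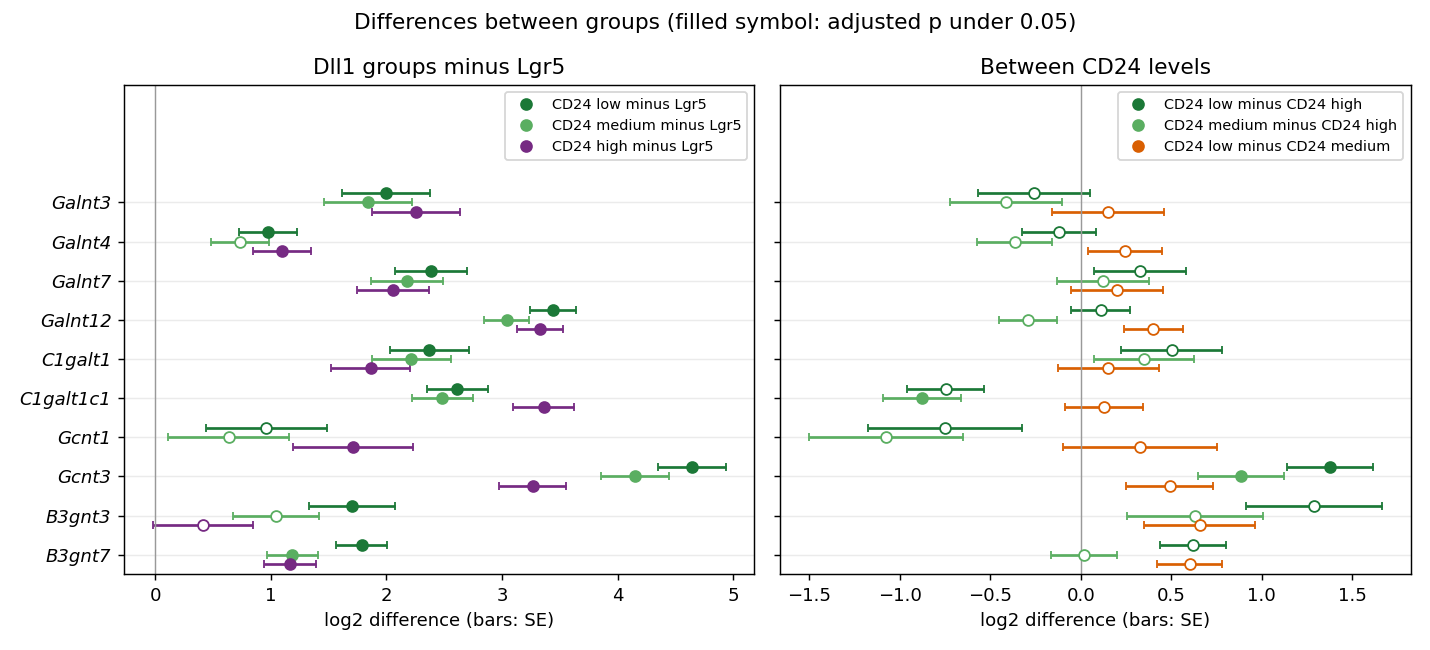
Log2 difference between groups (x axis, with its standard error) for each enzyme (y axis); left, each Dll1 group minus Lgr5, and right, differences between CD24 levels. Filled symbols passed the threshold. On the left all differences lie above 0, up to 4.64 for Gcnt3 in CD24 low, whereas on the right 3 passed; the filled Gcnt1 symbol on the left is of 2 groups below background.

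Fewer enzymes passed between CD24 levels. Between CD24 low and CD24 high 1 of the 10 passed, Gcnt3 (18.2% of all genes passed in either direction). Gcnt3 was 2.60-fold higher in CD24 low than in CD24 high (log2 difference 1.38, SE 0.24, adjusted p = 0.0113), and without CD24 high replicate 2 the adjusted p was 0.0513. Of the others, B3gnt3 differed by 1.29 (adjusted p = 0.0707), B3gnt7 by 0.62 (adjusted p = 0.06) and C1galt1c1 by −0.75 (adjusted p = 0.0582) between CD24 low and CD24 high. B3gnt3 passed with the replicate block (adjusted p = 0.0288), with the series matrix (0.0335) and without CD24 low replicate 1 (0.0368). B3gnt7 passed without background subtraction (adjusted p = 0.0271), with the series matrix (0.0306) and with the sample channel alone (0.0198), and C1galt1c1 without background subtraction (adjusted p = 0.0406) and with signal required on all 7 arrays (0.039). Between CD24 medium and CD24 high 2 of the 10 passed (21.0% of all genes). In CD24 medium Gcnt3 was 1.85-fold higher than in CD24 high (log2 difference 0.89, SE 0.24, adjusted p = 0.0445) and C1galt1c1 was 1.84-fold lower (log2 difference −0.88, SE 0.21, adjusted p = 0.0335). Each of these calls was lost in 7 alternative settings, with adjusted p up to 0.202 for Gcnt3 and 0.178 for C1galt1c1. Neither share of passing enzymes in this fit exceeds that of all genes.

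Between CD24 low and CD24 medium limma called 0 of the 10 enzymes (0.114% of all genes), and 2 of them, Galnt12 and B3gnt7, had an unadjusted p under 0.05. The share of all genes with such an unadjusted p was not counted, so these 2 are not read as a difference. All 10 differences were above 0, as were those of 55.7% of all genes, with a median of 0.29 on the log2 scale beside 0.03 for all genes. Of the 10 signs, 5 turned without CD24 medium replicate 2 (Galnt3, Galnt7, C1galt1, C1galt1c1 and Gcnt1), 4 without CD24 low replicate 1 (the same but Galnt7) and 2 with the sample channel alone (C1galt1c1 and Gcnt1). The interval that 2 arrays per group allow is wide, and these values do not show that the groups are alike. In order of group means, 6 enzymes were highest in CD24 low (Galnt7, Galnt12, C1galt1, Gcnt3, B3gnt3 and B3gnt7) and Galnt3, Galnt4 and C1galt1c1 in CD24 high. Gcnt1 has no settled order, since neither CD24 high array had signal well above background. Of neighbours in these orders within the Dll1 groups, limma's test separated CD24 medium from CD24 high for Gcnt3 alone, and the lowest Dll1 group was not separated from Lgr5 for Galnt4 and B3gnt3.

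Arrays lay on 2 slides, slide 1 with medium 1, high 1 and Lgr5, and slide 2 with low 1, low 2, medium 2 and high 2. A comparison within slide 1 was chosen after seeing the data. There the enzymes exceeded Lgr5 by 0.77 to 4.32 on the log2 scale in medium 1 and by 0.41 to 3.52 in high 1. The direction was already fixed, since each enzyme lay above Lgr5 on every Dll1 array with a value, so it is no separate check. CD24 low and Lgr5 share no slide, so for this comparison there is no within-slide value. Within slide 2 the mean of the CD24 low arrays exceeded high 2 by 1.63 for Gcnt3 and differed from it by −0.90 for C1galt1c1. For medium against high, Gcnt3 differed by 0.81 on slide 1 and 0.96 on slide 2, and C1galt1c1 by −0.54 on slide 1 and −1.21 on slide 2.

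Of the 10 enzymes, 7 had more than 1 probe on the array. The second probes of Galnt7 and C1galt1 passed in all 3 comparisons with Lgr5, as the probes used did. That of Galnt4 was not well above background on the Lgr5 array and CD24 high replicate 2. By it Galnt4 was at least 1.39-fold higher in CD24 low (adjusted p = 0.0407) and at least 1.45-fold higher in CD24 high (adjusted p = 0.0239) than in Lgr5. For C1galt1c1 the other probe did not follow the probe used, but its spots were dim, so it does not show that the levels were equal. The median intensity of the gene spots was 77.6 on CD24 high replicate 1 and 107.5 on CD24 low replicate 2. The probe used had signal intensities of 3773 to 7875 on Dll1 arrays and 1618 on the Lgr5 array, whereas the other, 3558 bases away at chrX:35987891-35987950, stayed between 75.2 and 121 on all 7 arrays, and neither CD24 high array had it well above background. Its levels were 0.12 and 0.45 in CD24 low, 0.34 and 0.14 in CD24 medium, 0.13 and 0.15 in CD24 high and 0.24 in Lgr5, and no comparison passed.

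Galnt3 too had a dim probe that did not follow the others. A second probe 81 bases away gave differences from Lgr5 of 1.96, 1.77 and 2.20 for CD24 low, medium and high, all past the threshold. The remaining probe, 11212 bases from the probe used, had intensities of 86.1 to 185, was not well above background on CD24 high replicate 2 and gave differences of 0.51, 0.42 and 0.31, none of which passed. The 2 further Gcnt1 probes, which share 40 bases with each other, and the further B3gnt7 probe were not well above background on any array. Which transcript each probe reads was not tested.

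**Figure D3:**
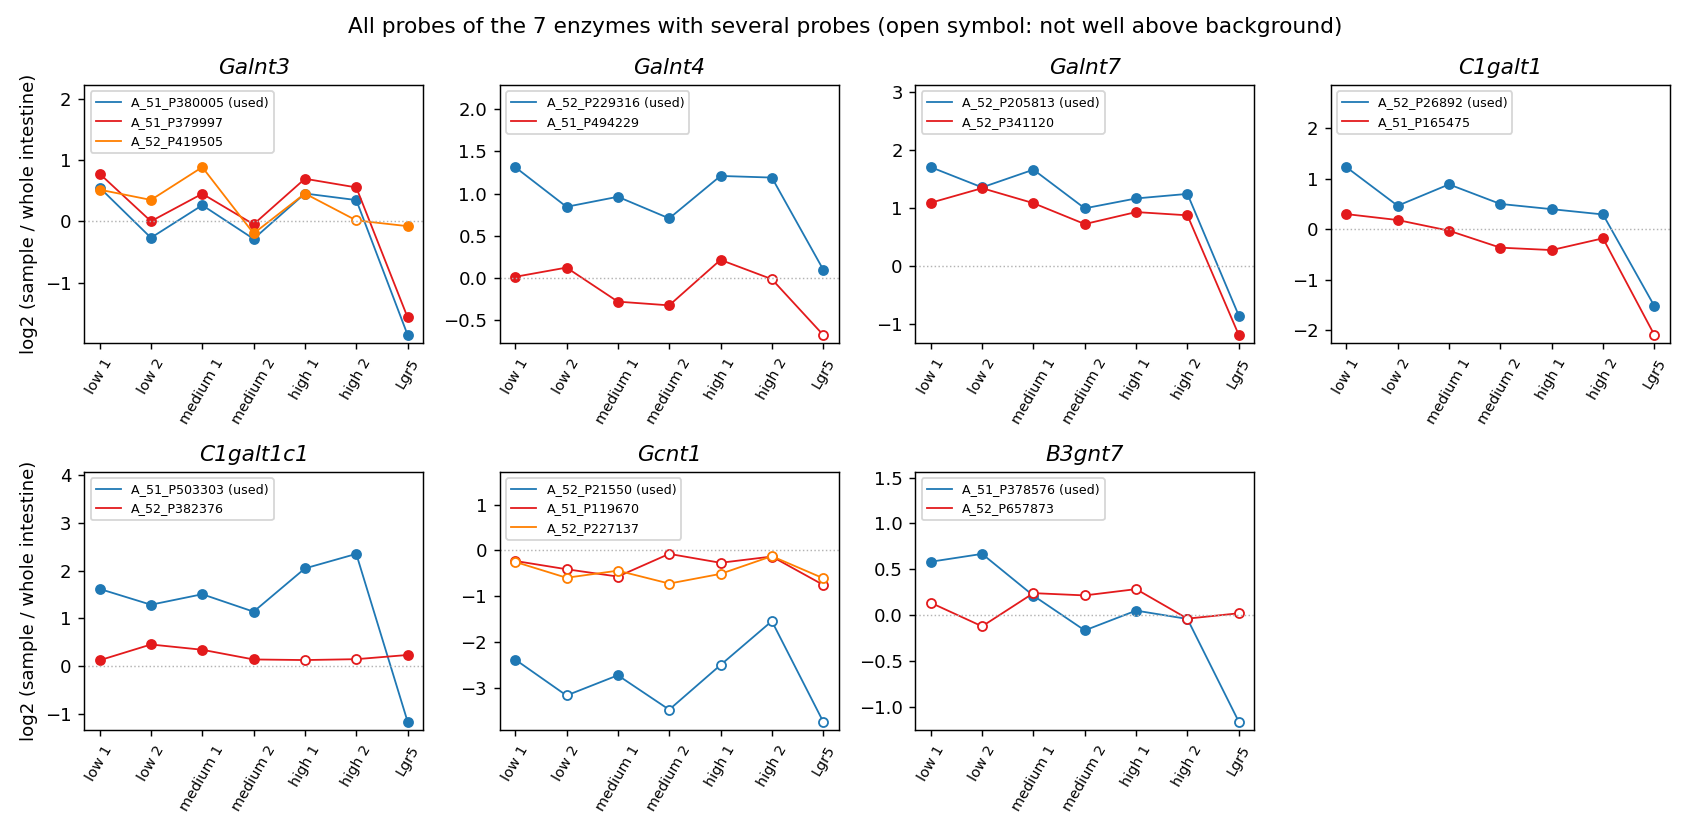
Level on each array (y axis, log2 of sample over whole intestine) for every probe of the 7 enzymes with several probes; the x axis lists the arrays, the legend gives the manufacturer's probe names, and open points are spots not well above background. The second C1galt1c1 probe, dim on all arrays, stays between 0.12 and 0.45 while the probe used drops to −1.16 in Lgr5.

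Markers of several cell types moved with the groups. All 10 goblet markers were well above background on all 7 arrays, and their median level was 3.56 and 2.96 in CD24 low, 2.75 and 2.35 in CD24 medium, 1.38 and 1.28 in CD24 high and −3.18 in Lgr5. Of these 10 markers, 10 were higher in CD24 low than in Lgr5 (12.0% of all genes), 10 in CD24 medium (10.3%) and 8 in CD24 high (21.3%). Clca1, a secreted goblet cell product, had levels of 4.29 and 2.33 in CD24 low, 2.63 and 0.61 in CD24 medium, −1.64 and −5.06 in CD24 high and −6.19 in Lgr5.

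The 7 measured Paneth markers stood highest in CD24 high, with medians of −2.86 and −3.49 in CD24 low, −0.56 and −0.23 in CD24 medium, 5.13 and 5.55 in CD24 high and −3.53 in Lgr5. The 9 enteroendocrine markers had medians of 1.56 and 3.29 in CD24 low, 3.02 and 4.79 in CD24 medium, −0.51 and −0.14 in CD24 high and −1.14 in Lgr5. Lyz1, the lysozyme of Paneth cells, was at 6.17 and 6.23 in CD24 high and Chgb, a granule protein of enteroendocrine cells, at 3.62 and 5.48 in CD24 medium. Of the 10 goblet markers, 6 had the order of groups of Gcnt3 (CD24 low, medium, high, Lgr5 from high to low), whereas Spink4 and Retnlb ran from CD24 high down to CD24 low and Muc2 and Spdef had their lowest Dll1 level in CD24 medium; these were named after their values were seen. Paneth marker levels had their highest group, CD24 high, in common with Galnt3, Galnt4 and C1galt1c1. None of these enzymes passed in CD24 low against high in the fit reported, and C1galt1c1 alone of them passed in CD24 medium against high.

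Markers of other cell types were also compared with Lgr5. Among all genes, 12.0%, 10.3% and 21.3% were higher than in Lgr5 in CD24 low, medium and high. The shares of all genes that were lower were 9.76%, 8.46% and 14.6%. Of 8 enterocyte markers, 7 were higher in CD24 low, 2 in CD24 medium and 5 in CD24 high than in Lgr5, although their median level was below whole intestine on every array, at −3.04 and −3.79 in CD24 low, −4.08 and −4.02 in CD24 medium, −3.73 and −3.16 in CD24 high and −5.08 in Lgr5. Of 5 mesenchyme markers, 3 were higher in CD24 low, 2 in CD24 medium and 4 in CD24 high, with median levels of −3.68 to −2.70 on Dll1 arrays and −4.84 in Lgr5. Of 5 stem cell markers, 4 were lower in each Dll1 group (Lgr5 itself, whose promoter drove the sort, among them), with median levels of −1.23 to 0.64 on Dll1 arrays and 1.74 in Lgr5. Of 5 tuft cell markers, 1 was higher in CD24 medium and 2 in CD24 high than in Lgr5. Of 4 immune markers, 1 was higher in CD24 low and 1 in CD24 high, where 1 was lower. With so few genes, these tuft and immune counts are not set apart from the shares of all genes. The part of each cell type in the enzymes' differences was not tested.

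Other genes of the same pathway were measured too. Of 4 lists with 70 genes (other GalNAc transferases, other core and extending enzymes, capping and sulfating enzymes, and enzymes and transporters of sugar donors), 54 were measured. Of these 54 genes, 31 were higher in CD24 low than in Lgr5, 27 in CD24 medium and 29 in CD24 high. That is 57.4%, 50% and 53.7% of them, beside 12.0%, 10.3% and 21.3% of all genes. In CD24 high 1 of the 54, St3gal6, was lower than in Lgr5 (14.6% of all genes). In the donor list 15 of 19 genes were higher in CD24 low, 13 in CD24 medium and 14 in CD24 high, with median differences of 1.55, 1.28 and 1.26 on the log2 scale. Gfpt1, which feeds the hexosamine pathway that yields the sugar donors, was 10.2-fold higher in CD24 low (adjusted p = 0.00199), 8.32-fold in CD24 medium (adjusted p = 0.00295) and 11.3-fold in CD24 high (adjusted p = 0.000618).

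Of the 9 other GalNAc transferases measured, 4 were higher in each Dll1 group than in Lgr5. Among all genes the shares were 12.0% in CD24 low, 10.3% in CD24 medium and 21.3% in CD24 high. Galnt5 led them, at 7.66-fold in CD24 low, 6.05-fold in CD24 medium and 5.83-fold in CD24 high (adjusted p = 0.00246, 0.004 and 0.00157). Of the 12 other core and extending enzymes, 4 were higher in CD24 low, 4 in CD24 medium and 3 in CD24 high than in Lgr5. The 3 of 12 in CD24 high lie near the share of all genes. B3galt5 adds galactose to N-acetylglucosamine. It was higher by 3.40 in CD24 low, 3.13 in CD24 medium and 1.95 in CD24 high on the log2 scale (adjusted p = 0.00225, 0.0032 and 0.00596).

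**Figure D4:**
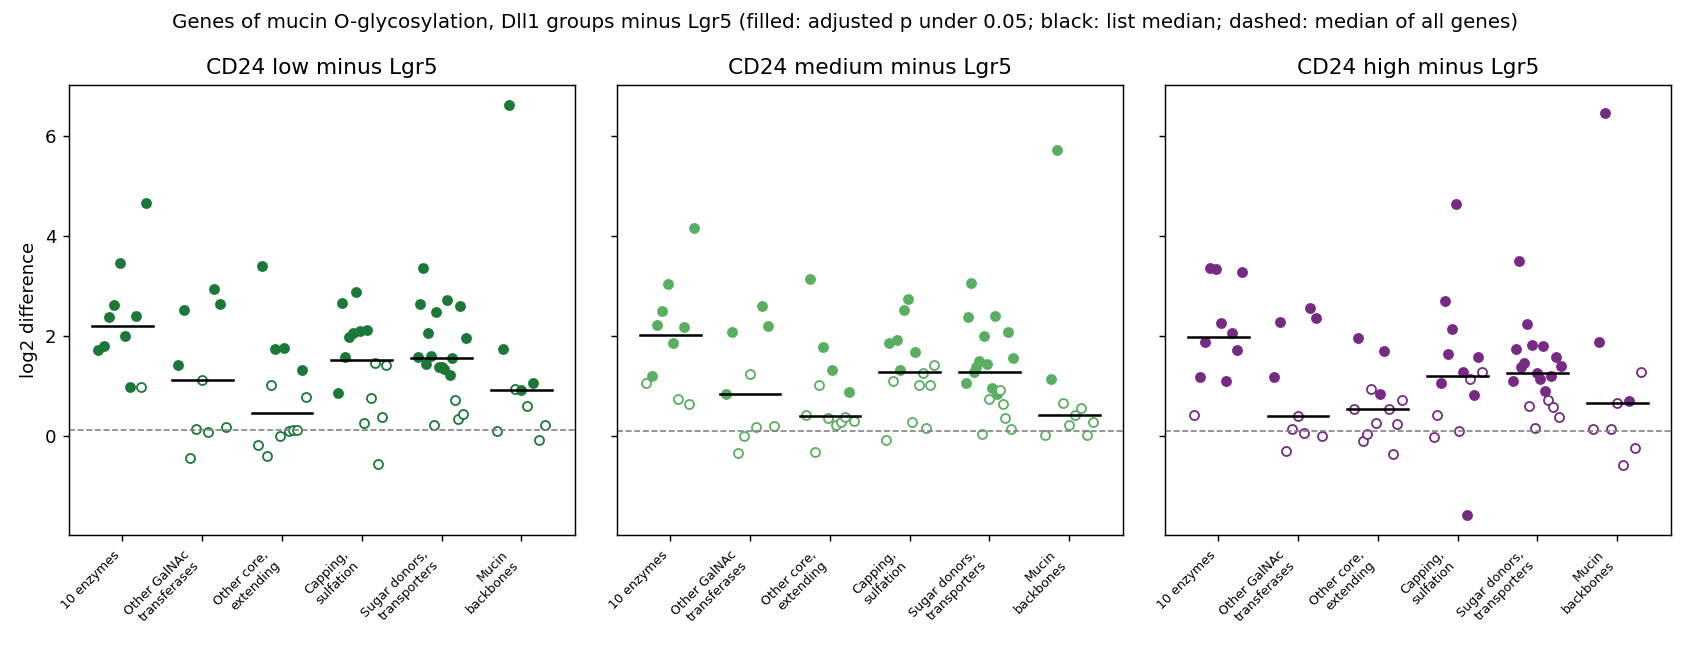
Log2 difference from Lgr5 (y axis) of each measured gene of the 10 enzymes, 4 further pathway lists and the mucin backbones (x axis), in CD24 low, medium and high (panels left to right). Filled points passed the threshold, black lines are list medians and the dashed line is the median of all genes, 0.11, 0.09 and 0.10; the 10 enzymes have medians of 2.18, 2.01 and 1.96.

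Of the 14 capping and sulfating enzymes measured, 3 were higher and 4 lower in CD24 low than in CD24 high (6.92% and 11.3% of all genes). In CD24 medium against CD24 high, 2 were higher and 3 lower (7.58% and 13.4% of all genes). St3gal1, which puts sialic acid on core 1, had levels of 0.47 and 0.08 in CD24 low, 1.17 and 0.63 in CD24 medium, 3.07 and 2.54 in CD24 high and −1.83 in Lgr5. It was 5.78-fold lower in CD24 low than in CD24 high (adjusted p = 0.00191), 3.75-fold lower in CD24 medium than in CD24 high (adjusted p = 0.00614). Against Lgr5 it was 4.29-fold higher in CD24 low (adjusted p = 0.0093), 6.61-fold in CD24 medium (adjusted p = 0.00455) and 24.8-fold in CD24 high (adjusted p = 0.000317). St3gal6, a sialyltransferase, had levels of 1.61 and 1.31 in CD24 low, 1.89 and 1.52 in CD24 medium, −0.65 and −1.12 in CD24 high and 0.70 in Lgr5, so that CD24 high was its lowest group, where St3gal1 had its highest.

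St3gal6 was 5.09-fold higher in CD24 low (adjusted p = 0.00138) and 6.03-fold higher in CD24 medium (adjusted p = 0.00111) than in CD24 high, and in CD24 high it was 3.01-fold lower than in Lgr5 (adjusted p = 0.00698). Chst4, which sulfates N-acetylglucosamine, was 4.71-fold higher in CD24 low (adjusted p = 0.000593) and 2.68-fold higher in CD24 medium (adjusted p = 0.00394) than in CD24 high. B4galt1, a galactosyltransferase that lengthens branches, was 3.04-fold lower in CD24 low (adjusted p = 0.00195) and 2.77-fold lower in CD24 medium (adjusted p = 0.00325) than in CD24 high. Fut4, a fucosyltransferase, was higher than in Lgr5 in every Dll1 group. The folds were 3.92 in CD24 low, 3.74 in CD24 medium and 6.42 in CD24 high (adjusted p = 0.00282, 0.0034 and 0.000388). Gal3st2, a galactose sulfotransferase, was higher too. Its folds over Lgr5 were 7.27 in CD24 low, 5.68 in CD24 medium and 4.36 in CD24 high (adjusted p = 0.00977, 0.0151 and 0.0143).

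Among the 9 mucin backbones, Muc2, the gel mucin of goblet cells, had levels of 2.94 and 2.35 in CD24 low, 2.12 and 1.38 in CD24 medium, 2.42 and 2.56 in CD24 high and −3.96 in Lgr5. All 6 Dll1 arrays were far above Lgr5. CD24 medium lay below the other CD24 levels without overlap, but the difference did not pass for CD24 medium against high (adjusted p = 0.134) or low against medium (adjusted p = 0.388). Muc2 was 97.2-fold higher in CD24 low (adjusted p = 0.0005), 52.2-fold higher in CD24 medium (adjusted p = 0.000752) and 87.1-fold higher in CD24 high (adjusted p = 0.000138) than in Lgr5. Muc13, a membrane mucin, was 3.31-, 2.18- and 3.65-fold higher in CD24 low, medium and high (adjusted p = 0.00329, 0.0124 and 0.000998). Muc5ac was 2.06-fold higher in CD24 low (adjusted p = 0.0183) and 1.61-fold higher in CD24 high (adjusted p = 0.043), and Muc3 was 1.89-fold higher in CD24 low (adjusted p = 0.0396). Muc1, Muc4, Muc5b, Muc6 and Muc20 did not pass against Lgr5, and Muc6 differed between the CD24 high arrays, at 0.27 and 2.56.

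Across the 7 arrays the enzymes varied together to different degrees, as a description over arrays that share their groups and whole-intestine reference. Pearson's r was 0.98 for Galnt3 with Galnt4, 0.98 for Galnt7 with C1galt1 and 0.97 for C1galt1 with Gcnt3, and 0.82 for C1galt1 with its chaperone C1galt1c1. Among the 9 enzymes other than Gcnt1, which was well above background on 2 arrays alone, the lowest values were those of B3gnt3 with Galnt4 (0.39) and with Galnt3 (0.41), over 6 arrays. The single Lgr5 array gave the lowest value of every enzyme and is 1 of the points behind each r.

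Likeness was sought among genes with a value on all 7 arrays and a range of at least 1, 7242 for enzymes with 7 values. Symbols of clones, predicted genes, pseudogenes and accessions were passed over. The single Lgr5 array, lowest for every enzyme, is 1 of the points behind each r here too. The leading genes of so many have high r by selection, so these values are a description alone. The patterns most like Galnt12 were those of Muc2, Kdelr3 and Ttc39a, each with r of at least 0.9969. Gcnt3 was most like Gde1, Icmt and Agr2, the last of which is a goblet marker of the list above with levels of 4.03 and 3.72 in CD24 low, 3.50 and 3.19 in CD24 medium, 2.35 and 1.87 in CD24 high and −2.66 in Lgr5. C1galt1c1 was most like Akap9, Slc35b1 and Aph1b, Galnt7 like Mon1a, Oit1 and Uggt1, C1galt1 like Apeh, Osbpl7 and Mgat3, and Galnt3 like Rhobtb1, Pofut2 and Arl1. Galnt4 was most like Smdt1, Cd2ap and Edem3, B3gnt3 like Kctd3, Rhbdl2 and Vasp, and B3gnt7 like Wtip, Cltb and Atoh1. The lowest r among these was 0.98. For Gcnt1, dim on most arrays, the leading genes were Gpsm3, Hvcn1 and Ccl17 with r of 0.97.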

How the data were processed

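Per the labels' protocols, RNA was isolated with Trizol, and 100 ng of it was amplified and labelled with an Agilent low-input kit. Per the file headers, the authors used Agilent Feature Extraction 10.5.1.1 and deposited scanner files that list, for either channel, the intensity of each spot and of its background, with a log10 ratio (Cy5 over Cy3). In the deposited series matrix the same log10 ratio stands with its sign turned; it was used here as an alternative, and its scale and direction follow from that match.

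Here, mean spot intensity was background corrected by normexp (offset 50), and log2 ratios were normalised within arrays by loess (span 0.3), in which control spots carried no weight. Outlier spots took part in the loess and were left out afterwards, when the spots of a probe were averaged. This was done with R 4.3.3, limma 3.58.1 and version 1.17.8 of data.table. Python 3.11.15 with matplotlib 3.10.9 made the figures. Probes with sample signal well above background on 2 or more of the 7 arrays were kept, and the brightest probe stood for each of 17498 genes; names came through RefSeq accessions for 26918 probes and from the array files for 14256. The 2 slides and the sample labels are those of the files. lmFit and eBayes fitted a mean for each group over the 7 arrays (3 residual and 3.53 prior degrees of freedom), with Benjamini-Hochberg adjustment over all genes and a threshold of 0.05. The spread comes from the 6 Dll1 arrays alone, since there is 1 Lgr5 array, and the labels do not say whether replicates share animals, so p-values measure the spread between these arrays, whose small number limits the precision.

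Of the gene spots, 42.5 to 44.4% on CD24 high arrays and 52.8 to 60.5% elsewhere had sample signal well above background, with 0 saturated spots, and replicates correlated at r = 0.90 to 0.94 over genes.

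Tested on simulated data with 17320 genes, the comparisons between CD24 levels recovered 70 to 72 of 100 genes given a log2 change of 2 and 19 to 23 of 100 given a change of 1, and those with Lgr5 54 to 57 and 2 to 3. Of the unchanged genes they called 2 to 6. In each simulated comparison 100 genes were given each change, a smaller share than passed in the data except for CD24 low against medium. The Benjamini-Hochberg adjustment depends on that share, so these counts need not hold for the data.

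The 10 enzymes, the gene lists and the markers were chosen with earlier results of these data known. Genes named are the 10 enzymes with all their probes, in each comparison the 4 genes of the 4 pathway lists that passed by the largest absolute difference, all measured mucin backbones, markers picked in the rule (Muc2, Clca1, Lyz1, Chgb, Lgr5, Cd24a and Dll1, of which those used as gates are not results), and 3 genes of highest Pearson r for each enzyme. Agr2 and Atoh1 are named for that r alone. The labels do not say whether equal replicate numbers pair the arrays, and the fit reported does not pair them. Deviations from group means correlated at 0.48 for CD24 low with medium, 0.30 for medium with high and −0.003 for low with high. Where these correlations come from was not tested. Alternatives were other background correction, scaling, filters, probe averaging, the series matrix, the sample channel alone, slide and replicate terms, a fit of the compared groups alone and leaving out each Dll1 array.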

Additional observations from a re-analysis of the deposited data

How the results depend on the processing

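No called difference of the 10 enzymes changed its sign under the alternatives run, and 18 of the 25 calls against Lgr5 passed under each alternative that tested them. The 7 lost at least once were those of Galnt3 in CD24 medium, Galnt4 in CD24 low and high, Gcnt1 in CD24 high, B3gnt3 in CD24 low and B3gnt7 in CD24 medium and high, and all 3 calls between CD24 levels were lost at least once. The cause was not tested. Where signal was required on all 7 arrays, Gcnt1, B3gnt3 and B3gnt7 were not among the genes tested. No alternative left out the single Lgr5 array, on which every call against Lgr5 rests. Without background subtraction, 3 enzymes passed in CD24 low against high and 1 in medium against high. With the series matrix these counts were 3 and 0, and with the sample channel alone 2 and 0. Requiring signal on all 7 arrays gave 2 in low against high. With no filter on dim probes, and with the mean of all probes, 1 passed in medium against high. The replicate block, which pairs equal numbers, gave 2 in low against high, 2 in medium against high, 0 in low against medium, and 9, 7 and 8 against Lgr5. Leaving out 1 array at a time gave 0 to 2, 0 to 2, 0 to 0, 8 to 8, 5 to 7 and 7 to 9 enzymes for low against high, medium against high, low against medium, and low, medium and high against Lgr5.

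Over all genes, leaving out 1 array gave 1690 to 3385, 1263 to 3983, 9 to 38, 2271 to 3865, 1361 to 3618 and 4890 to 6344 calls in the same order. No background subtraction gave 5041 calls in low against high and 34 in low against medium, the series matrix 5730 in low against high, a fit of the 2 groups alone 9 in low against medium and 2296 in low against Lgr5, and slide as a term 1398 in low against Lgr5. The split of genes higher and lower was 1211 and 1975 in low against high, 1327 and 2340 in medium against high and 3712 and 2556 in high against Lgr5. With the series matrix it was 3353 and 2377, 3017 and 2223, and 3233 and 4003, as its all-gene medians lay at 0.23, 0.21 and −0.14. With the sample channel alone it was 2331 and 2128, 2227 and 1896, and 2614 and 3659, and against Lgr5 1420 and 2172 for low (2091 and 1703 in the fit reported) and 1256 and 1655 for medium (1803 and 1477). Scaling between arrays by average intensity leaves ratios as they are.

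Some uncalled differences changed sign. With the sample channel alone these were Galnt4 (0.0404) and Gcnt1 (0.0718) in low against high, Galnt7 (−0.0552), Galnt12 (0.0074) and Gcnt1 (0.113) in medium against high, C1galt1c1 (−0.0739) and Gcnt1 (−0.0412) in low against medium, and B3gnt3 (−0.0393) in high against Lgr5. With the series matrix they were Gcnt1 (0.53 in low against high, 0.34 in medium against high) and Galnt7 (−0.0416 in medium against high), and without background subtraction Galnt7 (−0.0177 in medium against high). Over the fits without 1 array, the sign also turned for Galnt3 (−0.67 to 0.15) and Galnt4 (−0.36 to 0.11) in low against high and for Galnt7 (−0.21 to 0.46) and B3gnt7 (−0.17 to 0.21) in medium against high. In low against medium it turned for Galnt3 (−0.26 to 0.56), Galnt7 (−0.13 to 0.54), C1galt1 (−0.23 to 0.54), C1galt1c1 (−0.054 to 0.31) and Gcnt1 (−0.0658 to 0.72).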
